A study of Mus musculus with 18 samples.

Results

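Hpgd and 7 other genes of prostaglandin metabolism were followed in RNA-seq of the mouse hippocampus after kainic acid (KA), a glutamate receptor agonist that produces a model of mesial temporal lobe epilepsy. The genes were chosen by symbol: Pla2g4a, Ptgs1, Ptgs2, Ptges, Ptges3, Ptgds, Hpgds and Hpgd, 8 of the 55291 gene symbols in the count tables, and all 8 were found in every library. Hpgd itself was chosen because it is among the largest rises in the astrocyte-enriched RNA of KA-injected mice. That rise was measured against the astrocyte-enriched RNA of controls. The values of Hpgd in every comparison that uses this RNA are therefore a description without a test. Counts of changed genes there are over the 7 other genes.

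All mice were male C57BL/6J and 6 weeks old at the AAV surgery. All received AAV-DJ into the right CA3 to express EGFP-Rpl10a, a tagged ribosomal protein, under the GfaABC1D promoter, a short GFAP promoter active in astrocytes. In the KA group, KA was given to the right dentate gyrus 2 weeks after the AAV and RNA was taken 14 days later. The AAV control group received the AAV alone, and RNA was taken 2 weeks after it. The PBS group received PBS after the AAV, and its collection time is not given in the sources used here. Each sample pooled the right hippocampi of 3 to 4 mice, and gave an IP library (RNA bound to tagged ribosomes, pulled down with anti-GFP) and an input library (total RNA of the same homogenate), with 3 samples per group and 18 libraries in all. The KA and AAV control samples #1 and #2 were sequenced in run 1 and their samples #3 in run 2, whereas all PBS samples were in run 3, so a difference from PBS cannot be told apart from that run. KA mice were also collected later after the AAV than AAV control mice, and so were older at collection by this timeline.

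Prostaglandins are short-lived lipid signals made from arachidonic acid, which cytosolic phospholipase A2 (Pla2g4a) releases from membranes. Cyclooxygenases (Ptgs1, constitutive in many cells, and Ptgs2, inducible by neuronal activity and inflammation) convert it to prostaglandin H2, from which terminal synthases make prostaglandin E2 (Ptges, Ptges3) or prostaglandin D2 (Ptgds, Hpgds). Hpgd encodes the NAD-dependent dehydrogenase that oxidizes and thereby inactivates E- and F-series prostaglandins. In the brain, Ptgds is abundant in oligodendrocytes, meninges and choroid plexus, and Ptgs1 and Hpgds are used by microglia.

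The Hpgd gene (ENSMUSG00000031613.9) lies on chromosome 8 from 56294585 to 56321043 on the plus strand of GRCm38 in GENCODE, and the RefSeq start lies 33 bases further upstream, at 56294552. The sequence upstream of the GENCODE start, with the RefSeq start within it, is shown because Hpgd carried the largest difference of the 8 genes. The 250 bases below are RefSeq sequence of GRCm38.p6, chr8:56294332-56294581, plus strand, with a TATA box (TATAAA) and a GC box (GGGCGG, here on the opposite strand) in capitals.

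Hpgd start region: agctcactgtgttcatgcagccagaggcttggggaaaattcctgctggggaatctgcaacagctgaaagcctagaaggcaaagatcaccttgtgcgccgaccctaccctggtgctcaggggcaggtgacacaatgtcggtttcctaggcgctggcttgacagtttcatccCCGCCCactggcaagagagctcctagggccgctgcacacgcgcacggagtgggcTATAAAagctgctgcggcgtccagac

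The TATA box begins 29 bases before the GENCODE start and 4 bases after the RefSeq start, and the GC box begins 83 bases before the GENCODE start. Over RefSeq windows of 300 bases (250 before to 50 after a start, both strands read), 13.6% of 32851 windows held a TATA box and 35.7% held a GC box. Of the 8 genes, Pla2g4a and Hpgd held a TATA box, and Ptgs2, Ptges, Ptges3 and Hpgd held a GC box. A cyclic AMP element core (TGACGT, in 7.51% of all windows) was present in the Ptgs2 window. An AP-1 element, written TGANTCA, was present in the Ptgds window and in 7.81% of all windows. A STAT element, written TTCNNNGAA, was in none of the 8 windows and in 8.3% of all windows. These matches are descriptions of letters and were not related to the RNA levels.

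The libraries held 7991681 to 16032180 counts (median 10313126). The summed FPKM (fragments scaled by gene length and library size) of 8 astrocyte markers was 6300 to 11900 in IP and 517 to 1390 in input libraries, so the IP libraries carried the astrocyte markers their label calls for. By group, the astrocyte sum in IP was 6300 to 7820 in KA, 6460 to 9820 in AAV control and 6820 to 11900 in PBS. In KA IP, 5 of 8 astrocyte markers (Aldh1l1, Gja1, Slc1a3, Slc1a2 and Aldoc) lay below every AAV control IP library. Aqp4 and Gfap lay above every one. Against PBS IP, 4 of 8 lay below (these 5 without Aldh1l1), and Aqp4 and Gfap above. The part of this shift in the levels of the genes below was not tested. Markers of other cell types also moved with the groups and are given here for use below. The sum of 8 microglia and macrophage markers was 647 to 1170 in KA input, 73.1 to 111 in AAV control input and 84.4 to 90.2 in PBS input, and in IP it was 20.1 to 39.4, 8.57 to 13.5 and 9.6 to 15.1. The sum of 8 oligodendrocyte markers was 1380 to 2620 in KA IP, 258 to 1120 in AAV control IP and 289 to 594 in PBS IP. The sum of 8 neuronal markers was 263 to 361 in KA IP, 138 to 176 in AAV control IP and 149 to 258 in PBS IP. In input it was 720 to 823, 990 to 1240 and 1110 to 1200. In these bulk samples, a change in the number of cells of a type and a change in the RNA per cell cannot be told apart.

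**Figure D1:**
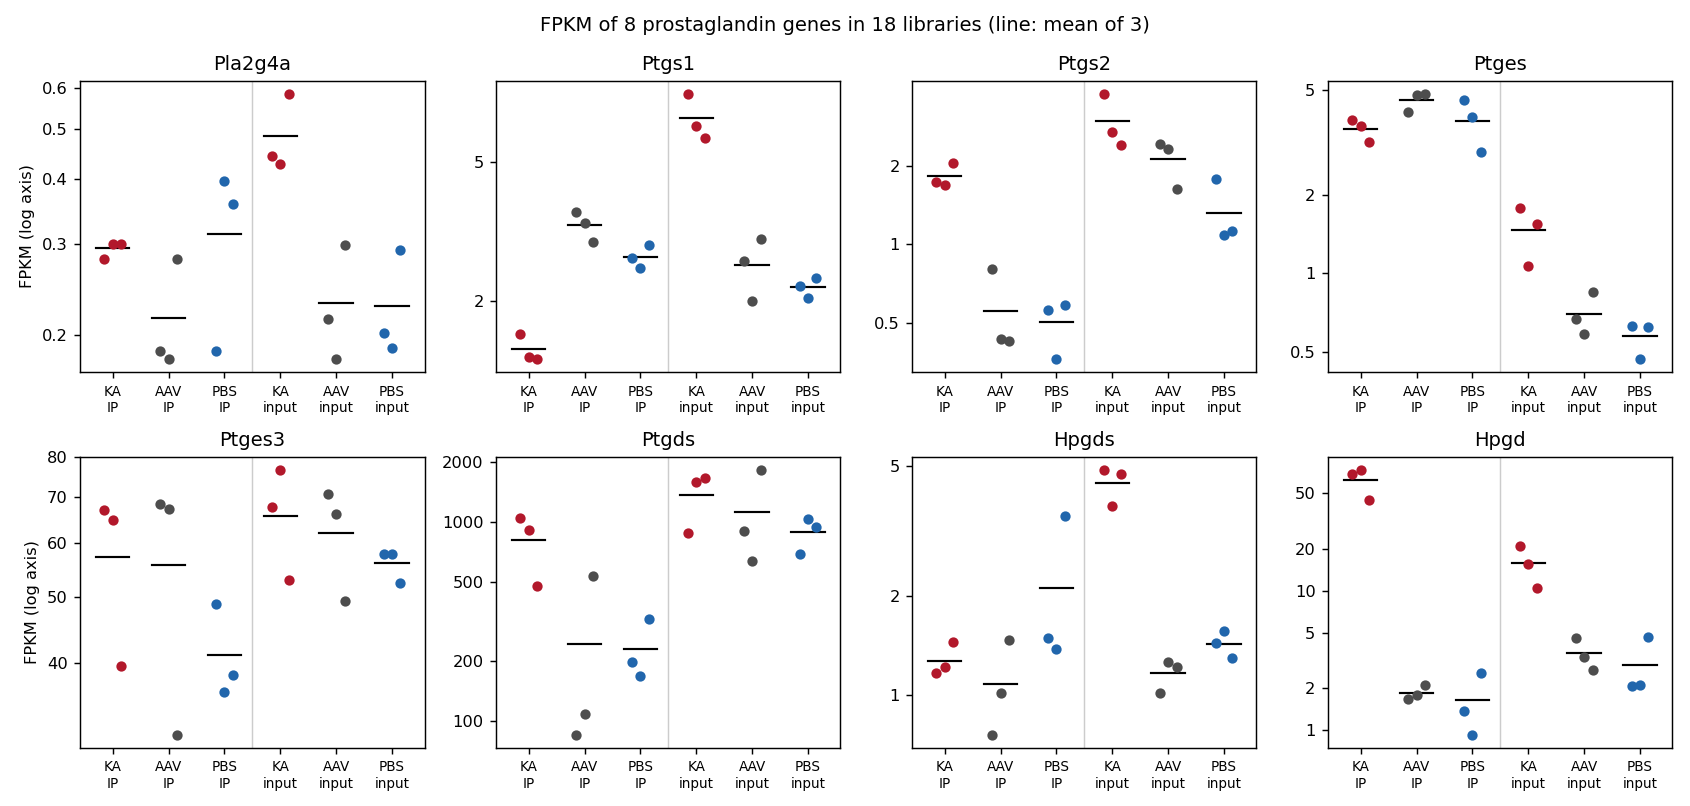
FPKM of each gene (vertical axis, log scale, a different range per panel) in the 3 IP and 3 input groups (horizontal axis, AAV standing for AAV control), with 1 point per library from #1 on the left to #3 on the right and a line at the mean of 3. Hpgd stands at 44.6 to 73.3 in KA IP and at 2.6 or below in every control IP library, whereas Ptgs1 is lowest in KA IP and highest in KA input.

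The genes differed widely in level. Ptgds, which makes prostaglandin D2, was the highest in every group by mean FPKM, from 231 in PBS IP to 1370 in KA input. Pla2g4a was the lowest in every group, from 0.216 in AAV control IP to 0.485 in KA input, and had between 11 and 38 counts in a library. In KA IP, Hpgd was second with a mean FPKM of 62.3 and its libraries overlapped those of Ptges3 (57.2). In AAV control IP, the order below Ptgds was Ptges3, Ptges, Ptgs1, Hpgd, Hpgds, Ptgs2 and Pla2g4a, and of these neighbours only Hpgds and Ptgs2 overlapped.

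Hpgd, the inactivating enzyme, was low in control IP and high in KA IP. In IP, its FPKM was 68.9, 73.3 and 44.6 in KA (62.3 ± 15.5, SD, n = 3), 1.67, 1.8 and 2.13 in AAV control (1.87 ± 0.24, SD, n = 3) and 1.37, 0.936 and 2.6 in PBS (1.64 ± 0.865, SD, n = 3). All 3 KA libraries lay far above all 6 control libraries, and KA #3 was the lowest of the 3. The ratio of mean FPKM was 33.3 against AAV control and 38 against PBS. The log2 fold change was 5.07 (SE 0.246) against AAV control, place 4 of the 9729 genes tested when ordered by fold change, with Scg2 just above it at 6.25 and Serpina3n just below it at 4.91. Within run 1 alone the log2 fold change was 5.42. Against PBS it was 5.5 (SE 0.295) in the fit without the FPKM filter, because PBS IP #2 was under the filter's FPKM of 1.

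The input libraries were not used to choose Hpgd, and Hpgd rose there too. Its input FPKM was 21.1, 15.5 and 10.4 in KA (15.7 ± 5.36, SD, n = 3), 4.61, 3.36 and 2.69 in AAV control (3.56 ± 0.975, SD, n = 3) and 2.07, 2.1 and 4.67 in PBS (2.95 ± 1.5, SD, n = 3). The KA and control libraries did not overlap. Hpgd rose in input by a log2 fold of 2.15 against AAV control (SE 0.269, adjusted p = 0.00492) and 2.4 against PBS (SE 0.291, adjusted p = 0.000235, both edgeR quasi-likelihood test). Within run 1 the value against AAV control was 2.21. The input comes from the same homogenates as the IP, so these libraries share their mice with those that chose the gene. The rise in input is therefore not independent of that choice. The summed astrocyte markers were also higher in KA input, at 1360 to 1390 against 517 to 894 in AAV control and 778 to 922 in PBS. Above every AAV control input library lay 6 of 8 markers, with Slc1a2 but not Gja1. Above every PBS input library lay 6 of 8, with Gja1 but not Slc1a2. The microglia and macrophage markers given above were higher there as well. The part of either in the Hpgd level of input was not tested.

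The ratio of Hpgd in IP to Hpgd in input turned over with KA. Dividing the IP value by the input value of the same homogenate gave 3.27, 4.72 and 4.3 in KA (4.09 ± 0.747, SD, n = 3), 0.361, 0.536 and 0.792 in AAV control (0.563 ± 0.217, SD, n = 3) and 0.663, 0.446 and 0.557 in PBS (0.555 ± 0.108, SD, n = 3). It was above 1 in all 3 KA homogenates and below 1 in all 6 control homogenates. In the fits of IP against input, given without a test, the log2 fold change of Hpgd was -0.74 in AAV control and -0.85 in PBS (the latter without the FPKM filter). Summed microglia and macrophage markers were lower in IP than in input in every group. In KA they were 20.1 to 39.4 against 647 to 1170. In AAV control they were 8.57 to 13.5 against 73.1 to 111, and in PBS 9.6 to 15.1 against 84.4 to 90.2. Summed oligodendrocyte markers were 2620, 1820 and 1380 in KA IP against 981, 816 and 771 in KA input. They were 258, 335 and 1120 against 815, 778 and 949 in AAV control. The PBS values were 387, 289 and 594 against 714, 730 and 569. Oligodendrocyte and neuronal markers were higher in KA IP than in AAV control IP. The part of these markers in the Hpgd level was not tested. Gm45540, an unclassified transcript inside Hpgd on the same strand, had 1 to 12 counts per library.

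**Figure D2:**
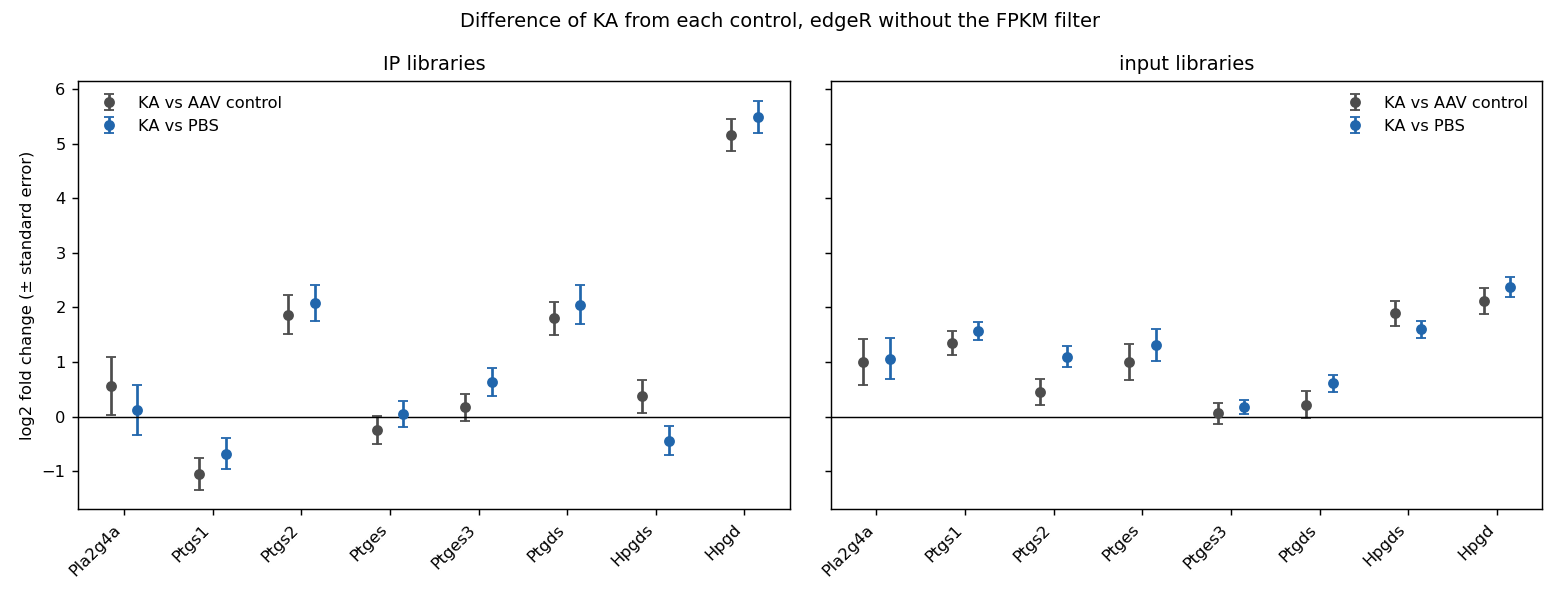
The log2 fold change of KA against AAV control and against PBS (vertical axis, bars are standard errors, edgeR without the FPKM filter, which keeps all 8 genes) for each gene in IP (left) and input (right). Ptgs1 lies below 0 in IP and above 0 in input, and Hpgd lies highest in both panels. Without the filter the median gene of KA against PBS in IP lies at -0.562.

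A gene was called when its adjusted p was below 0.05 and its absolute log2 fold change at least 1, among genes with FPKM above 1 in every library compared. In IP, against AAV control, 1 of 7 genes was called, Ptgs1, where 11.6% of all 9729 genes tested were called. Against PBS in IP 1 of 7 was called, Ptgds, against 17.4% of all genes. In input, 3 of 8 were called against AAV control (Ptgs1, Hpgds and Hpgd, 2.7% of all genes) and 4 of 8 against PBS (the same 3 and Ptgs2, 5.35% of all genes), and each of these was higher in KA. Hpgd is in every KA input count given here and below. Its input is an aliquot of the homogenates that chose it, so its place in these counts is not independent of that choice. Genes under the filter count as not called, whereas the shares are of genes that passed it. In IP, 4 of the 7 passed it against AAV control and 5 against PBS. In input, 6 of the 8 passed it against each control. In fits without it, which also test genes of few counts, 3 of 7 were called in IP against AAV control (8.91% of all genes), 2 of 7 in IP against PBS (13.4%), 4 of 8 in input against AAV control (3.73%) and 6 of 8 in input against PBS (6.33%). For genes under the filter, the value without the filter is given below, with the adjusted p among genes of at least 10 counts in 3 libraries beside it.

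The 2 cyclooxygenases differed in IP. Ptgs1 in IP had FPKM of 1.6, 1.38 and 1.36 in KA (1.45 ± 0.129, SD, n = 3), 3.61, 3.34 and 2.95 in AAV control (3.3 ± 0.329, SD, n = 3) and 2.65, 2.48 and 2.89 in PBS (2.67 ± 0.208, SD, n = 3). Every KA library lay below every control library. Ptgs1 fell by 1.13 on the log2 scale against AAV control (SE 0.183, adjusted p = 0.00574), and was -0.88 against PBS (SE 0.206, adjusted p = 0.00779), which is under the fold required for a call.

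In input, Ptgs1 moved the other way. Its FPKM was 7.86, 6.38 and 5.88 in KA (6.71 ± 1.03, SD, n = 3), 2.61, 2 and 3.01 in AAV control (2.54 ± 0.51, SD, n = 3) and 2.2, 2.03 and 2.33 in PBS (2.19 ± 0.148, SD, n = 3), with no overlap between KA and controls. It rose by 1.38 on the log2 scale against AAV control (SE 0.213, adjusted p = 0.0111) and by 1.6 against PBS (SE 0.144, adjusted p = 2.75e-05). The call against AAV control was lost without KA input #1 (1.29, adjusted p = 0.0736) and without AAV control input #1 (1.36, adjusted p = 0.055). Microglia and macrophage markers were higher in KA input too, 7 of 8 above every AAV control input library and 8 of 8 above every PBS input library. So were astrocyte markers, with 6 of 8 above every AAV control input library and 6 of 8 above every PBS input library. In IP, where Ptgs1 was lower in KA, the microglia and macrophage sum was higher. It was 20.1 to 39.4 in KA IP, 8.57 to 13.5 in AAV control IP and 9.6 to 15.1 in PBS IP. The part of these markers in the Ptgs1 level was not tested.

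Ptgs2, the inducible cyclooxygenase, was higher in KA IP. Its FPKM there was 1.73, 1.68 and 2.05 (1.82 ± 0.204, SD, n = 3), against 0.801, 0.434 and 0.426 in AAV control IP (0.553 ± 0.214, SD, n = 3) and 0.559, 0.363 and 0.582 in PBS IP (0.501 ± 0.12, SD, n = 3), which are under the FPKM filter. The KA and control libraries did not overlap, at 80 to 103 counts in KA and 19 to 41 in controls. Without the filter the log2 fold change was 1.87 against AAV control (SE 0.352, adjusted p = 3.72e-06, and 0.00684 among genes of at least 10 counts) and 2.08 against PBS (SE 0.328, adjusted p = 1.04e-08, and 0.000247 among genes of at least 10 counts). Neuronal markers were also higher in KA IP, with 5 of 8 above every AAV control IP library and 4 of 8 above every PBS IP library, and their part in the Ptgs2 level was not tested.

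In input, Ptgs2 FPKM was 3.76, 2.7 and 2.4 in KA (2.96 ± 0.717, SD, n = 3), 2.43, 2.31 and 1.63 in AAV control (2.12 ± 0.432, SD, n = 3) and 1.78, 1.08 and 1.12 in PBS (1.32 ± 0.397, SD, n = 3). KA overlapped AAV control and lay above PBS. KA differed by 0.49 on the log2 scale from AAV control (SE 0.209, adjusted p = 0.271) and by 1.13 from PBS (SE 0.253, adjusted p = 0.00817). The latter fell below the fold required for a call without KA input #1 (0.95), without PBS input #2 (0.99) and without PBS input #3 (0.97).

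Pla2g4a, upstream of both, did not pass the filter in any library. Its IP FPKM was 0.281 to 0.3 in KA, 0.18 to 0.281 in AAV control and 0.186 to 0.397 in PBS. KA overlapped PBS. It lay above AAV control only by less than the rounding, as KA #1 and AAV control #3 were both 0.281. Without the filter the IP log2 fold change was 0.56 against AAV control (SE 0.527, adjusted p = 0.589) and 0.12 against PBS (SE 0.455, adjusted p = 0.87). In input it was 0.444, 0.427 and 0.583 in KA and 0.18 to 0.299 in the 6 control libraries, with no overlap. Without the filter, the input log2 fold change was 1 against AAV control (SE 0.417, adjusted p = 0.19) and 1.06 against PBS (SE 0.376, adjusted p = 0.0321, and 0.0329 among genes of at least 10 counts).

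Of the prostaglandin D2 synthases, Hpgds (hematopoietic type) rose in input. Its input FPKM was 4.85, 3.76 and 4.73 in KA (4.44 ± 0.598, SD, n = 3), 1.01, 1.26 and 1.21 in AAV control (1.16 ± 0.129, SD, n = 3) and 1.44, 1.56 and 1.29 in PBS (1.43 ± 0.139, SD, n = 3). All KA libraries lay above all controls. Hpgds rose by 1.93 on the log2 scale against AAV control (SE 0.2, adjusted p = 0.00218) and by 1.63 against PBS (SE 0.17, adjusted p = 8.13e-05). As for Ptgs1, both the microglia and macrophage markers and the astrocyte markers were higher in KA input. In IP the microglia and macrophage sum was higher in KA, while Hpgds overlapped both controls. The part of these markers in the Hpgds level was not tested.

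In IP, Hpgds FPKM was 1.16, 1.21 and 1.45 in KA, 0.755, 1.01 and 1.47 in AAV control and 1.49, 1.38 and 3.5 in PBS. The KA libraries overlapped both controls, and PBS #3 stood above the rest. Without the filter KA differed by 0.37 on the log2 scale from AAV control (SE 0.305, adjusted p = 0.534), and with the filter by -0.68 from PBS (SE 0.314, adjusted p = 0.113).

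Ptgds, the lipocalin-type synthase, was higher in KA IP, but 1 control library set the size of the difference. Its IP FPKM was 1050, 907 and 478 in KA (813 ± 299, SD, n = 3), 85.9, 109 and 538 in AAV control (244 ± 255, SD, n = 3) and 199, 168 and 325 in PBS (231 ± 83.3, SD, n = 3). AAV control #3 lay above KA #3, while all PBS libraries lay below all KA libraries. Fitted over all 6 libraries, the log2 fold change was 1.69 against AAV control (SE 0.724, adjusted p = 0.143), 3.15 without AAV control IP #3 (SE 0.325, adjusted p = 0.000426), 2.33 with sequencing run as a term (adjusted p = 0.0208) and 3.4 within run 1. Without the filter it was 1.8 and called, with a standard error of 0.301. With the replicate number as a block, which here pairs libraries of the same run, the adjusted p was 0.0563. Against PBS the log2 fold change was 1.82 (SE 0.324, adjusted p = 0.00204).

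In the IP libraries, Ptgds and the oligodendrocyte markers had the same order within each group. Their sum was 2620, 1820 and 1380 in KA, 258, 335 and 1120 in AAV control and 387, 289 and 594 in PBS, the order of Ptgds in each. In KA IP, 5 of 8 oligodendrocyte markers lay above every AAV control IP library and 8 of 8 above every PBS IP library. The sum of 8 meninges and choroid plexus markers was 23 to 38.2 in KA IP, 2.83 to 64.9 in AAV control IP and 2.83 to 11.2 in PBS IP. The part of either in the Ptgds level was not tested.

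In input, Ptgds FPKM overlapped between KA (884, 1580 and 1650) and AAV control (903, 634 and 1820), with a log2 fold change of 0.27 (SE 0.455, adjusted p = 0.818), and against PBS (687, 1030 and 940) it was 0.64 (SE 0.249, adjusted p = 0.0804). The oligodendrocyte sum in input was 981, 816 and 771 in KA, 815, 778 and 949 in AAV control and 714, 730 and 569 in PBS, an order that was the reverse of that of Ptgds in KA, the same in AAV control and neither in PBS. The meninges and choroid plexus sum in input was 2500 to 4480 in KA, 30.5 to 2980 in AAV control and 27 to 305 in PBS, mostly Ttr, a choroid plexus transcript, and its part was not tested.

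**Figure D3:**
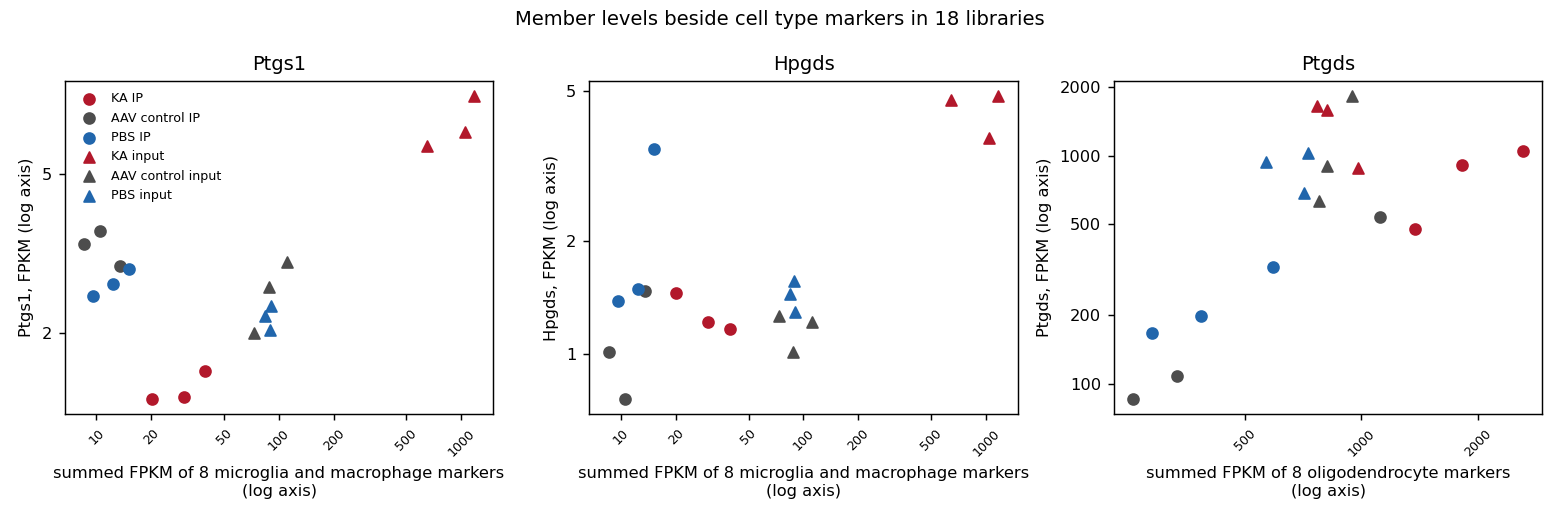
FPKM of Ptgs1, Hpgds and Ptgds (vertical axes, log scale) against the summed FPKM of 8 markers of microglia and macrophages or of oligodendrocytes (horizontal axes, log scale), 1 point per library, with circles for IP and triangles for input. The 3 KA input libraries are highest for Ptgs1, Hpgds and the microglia and macrophage markers, and AAV control IP #3 lies near KA IP #3 for Ptgds and oligodendrocyte markers.

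The prostaglandin E2 synthases showed no call in IP. Ptges, the microsomal enzyme coupled to Ptgs2, had an IP FPKM of 3.84, 3.64 and 3.16 in KA, 4.12, 4.79 and 4.82 in AAV control and 4.57, 3.96 and 2.91 in PBS. The log2 fold change was -0.32 against AAV control (SE 0.177, adjusted p = 0.24), where KA lay below all AAV control libraries, and -0.13 against PBS (SE 0.23, adjusted p = 0.693). The direction against PBS turned to 0.05 without the filter. In input, Ptges was 1.78, 1.07 and 1.55 in KA and 0.473 to 0.849 in the 6 controls, with no overlap. Without the filter the log2 fold change in input was 1 against AAV control (SE 0.329, adjusted p = 0.0463, but 0.0991 among genes of at least 10 counts) and 1.31 against PBS (SE 0.288, adjusted p = 9.73e-05, and 0.00561 among genes of at least 10 counts).

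Ptges3, the cytosolic synthase that is also the heat shock protein co-chaperone p23, was expressed at FPKM 31.5 to 76.7 in all 18 libraries and no comparison called it. The log2 fold change of KA against AAV control was 0.1 in IP (SE 0.281, adjusted p = 0.838) and 0.09 in input (SE 0.157, adjusted p = 0.829). Against PBS it was 0.46 in IP (SE 0.207, adjusted p = 0.104) and 0.21 in input (SE 0.128, adjusted p = 0.255).

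On single values of log2(FPKM + 1), a two-sided exact permutation test of 3 libraries against 3 cannot give a p below 0.1. That p was reached where the FPKM of the groups did not overlap. The count of such genes includes those under the FPKM filter. The share of all genes set beside it is only of genes that passed the filter, so count and share are not of like sets. For KA, the counted genes under the filter were Ptgs2 and, against AAV control only, Pla2g4a in IP, and Pla2g4a and Ptges in input. Against AAV control the genes without overlap were 4 of 7 in IP (37.0% of all genes) and 5 of 8 in input (22.6%). Against PBS they were 3 of 7 in IP (46.0%) and 6 of 8 in input (35.9%). Between PBS and AAV control they were 1 of 7 in IP (13.4%) and 1 of 8 in input (10.9%).

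**Figure D4:**
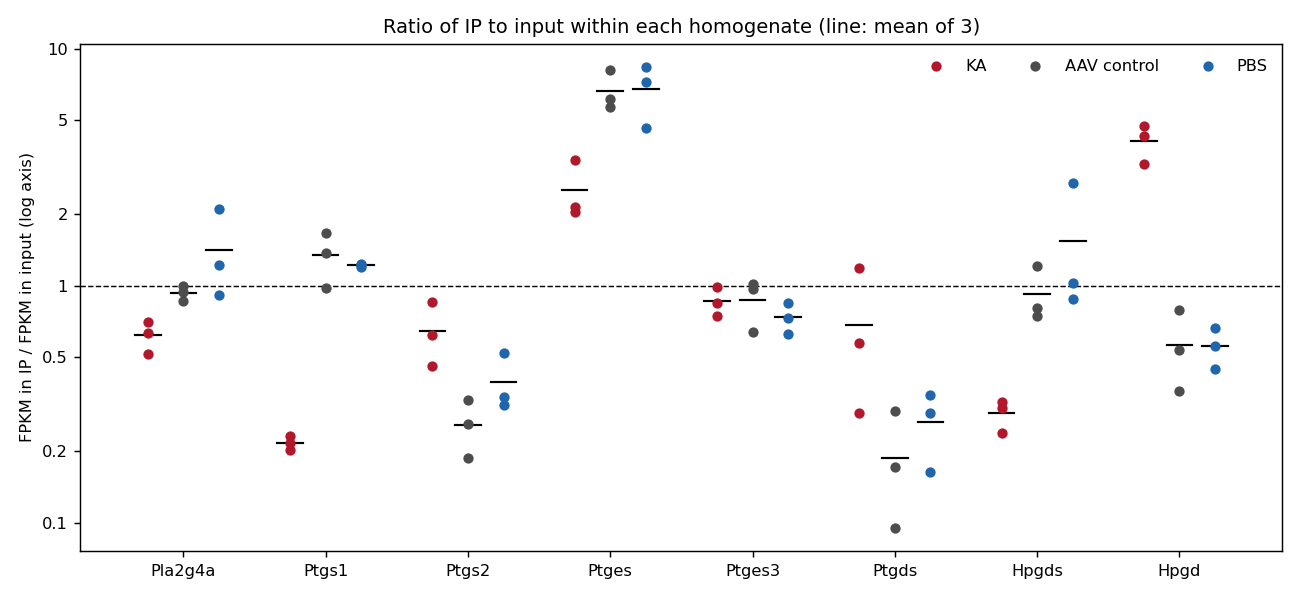
IP over input, by FPKM within a homogenate (vertical axis, log scale) for each gene, with 1 point per homogenate, a line at the mean of 3 and a dashed line at 1. Ptges lies above 1 in all 9 homogenates, and Hpgd only in the 3 KA homogenates.

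The ratio of IP to input separated the genes in the controls. Ptges was enriched in IP over input. Its ratios were 6.15, 8.17 and 5.68 in AAV control (6.67 ± 1.32, SD, n = 3), 7.22, 8.38 and 4.65 in PBS (6.75 ± 1.91, SD, n = 3) and 2.16, 3.41 and 2.04 in KA (2.53 ± 0.758, SD, n = 3). All KA ratios lay below all control ratios. Summed astrocyte markers were 6300 to 7820 in KA IP against 1360 to 1390 in KA input. They were 6460 to 9820 against 517 to 894 in AAV control and 6820 to 11900 against 778 to 922 in PBS. Their part in the Ptges ratio was not tested. Ptgds and Ptgs2 were depleted, with mean ratios of 0.188 and 0.259 in AAV control and 0.266 and 0.391 in PBS. In KA, Ptgs2 had ratios of 0.458, 0.62 and 0.856, of which the lowest overlapped PBS, and Ptgds had ratios of 1.19, 0.573 and 0.291.

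Ptgs1 and Hpgds went from a ratio near 1 in the controls to depletion in KA. The Ptgs1 ratio was 0.203, 0.217 and 0.232 in KA (0.217 ± 0.0143, SD, n = 3), 1.38, 1.67 and 0.982 in AAV control and 1.2, 1.22 and 1.24 in PBS. The Hpgds ratio was 0.239, 0.322 and 0.306 in KA (0.289 ± 0.0438, SD, n = 3), 0.745, 0.804 and 1.21 in AAV control and 1.03, 0.881 and 2.72 in PBS. KA lay below every control homogenate for both genes. Ptges3 had mean ratios of 0.862, 0.874 and 0.735 in KA, AAV control and PBS. Pla2g4a, at few counts, had mean ratios of 0.617, 0.934 and 1.41.

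In the fits of IP against input, 6 of the 7 genes passed the FPKM filter in KA, 3 in AAV control and 4 in PBS. With the filter, 3 of 7 were called in KA, against 12.6% of all genes. Ptgs1 was -1.99 (SE 0.153, adjusted p = 7.24e-05), Hpgds was -1.58 (SE 0.199, adjusted p = 0.000648) and Ptges was 1.48 (SE 0.209, adjusted p = 0.00113) on the log2 scale. In AAV control, 0 of 7 were called with the FPKM filter, against 26.4% of all genes. With limma-voom, with all 18 libraries in one fit or with the replicate block, 1 of 7 was called. Without the filter, 3 of 7 were called (Ptgs2, Ptges and Ptgds, 15.8% of all genes). There Ptgs2 was -1.77 (SE 0.366, adjusted p = 4.16e-05, and 0.00324 among genes of at least 10 counts) and Ptges was 2.83 (SE 0.321, adjusted p = 3.11e-13, and 0.000204 among genes of at least 10 counts). Ptgds was -1.99 (SE 0.823, adjusted p = 0.0951) with the filter, and -2.41 (SE 0.287, adjusted p = 0.000157) with the homogenate as a replicate block, which calls it. Leaving out IP #3 of the AAV control moved it to -3.46 (adjusted p = 0.00311).

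In PBS, 1 of 7 was called with the filter, Ptgds at -1.84 (SE 0.258, adjusted p = 7.93e-05), against 27.1% of all genes. Without the filter 3 of 7 were called, against 15.5% of all genes: Ptgds, Ptgs2 at -1.39 (SE 0.322, adjusted p = 0.000141, and 0.00237 among genes of at least 10 counts) and Ptges at 2.8 (SE 0.267, adjusted p = 9.13e-24, and 2.06e-06 among genes of at least 10 counts). The unfiltered fit of IP against input in KA called 3 of 7, against 9.99% of all genes. Pla2g4a was -0.42 in KA, 0.04 in AAV control and 0.49 in PBS without the filter (adjusted p = 0.55, 0.985 and 0.466). The median gene of the unfiltered fit in PBS lay at 0.593, so values of this fit are relative to that shift.

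For the 7 genes, the log2 fold change of KA in IP was compared with that in input, as an interaction term. With the FPKM filter, 3 of them could be tested with AAV control as the baseline and 4 with PBS. With AAV control as the baseline, 1 of 7 was called against 9.42% of all genes: Ptgs1, at -2.5 (SE 0.264, adjusted p = 0.000298). With the homogenate and number as a replicate block Ptgds was called as well, at 1.85 (SE 0.494, adjusted p = 0.013), and without the block it was 1.41 (SE 0.952, adjusted p = 0.388). With PBS as the baseline, 2 of 7 were called against 13.9% of all genes: Ptgs1 at -2.49 (SE 0.221, adjusted p = 3.26e-05) and Hpgds at -2.3 (SE 0.372, adjusted p = 0.00101). There Ptgds was 1.19 (SE 0.429, adjusted p = 0.0555), and 1.21 (adjusted p = 0.0398) with the block. Hpgd, described without a test, was 2.94 (SE 0.369) with AAV control as the baseline.

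Without the filter, 5 of 7 were called with AAV control as the baseline (4.89% of all genes) and 4 of 7 with PBS (6.75% of all genes). Those under the filter included Ptges, at -1.25 (SE 0.391, adjusted p = 0.0311, and 0.0355 among genes of at least 10 counts) and -1.22 (SE 0.357, adjusted p = 0.0108, and 0.0307 among genes of at least 10 counts). Summed astrocyte markers were higher in KA input but overlapped both controls in IP, and their part in the Ptges values was not tested. Ptgs2 was 1.41 with AAV control as the baseline (SE 0.409, adjusted p = 0.0149, and 0.0379 among genes of at least 10 counts) and 1.01 with PBS (SE 0.371, adjusted p = 0.067). Hpgds was -1.54 with AAV control as the baseline (SE 0.367, adjusted p = 0.00121, and 0.0251 among genes of at least 10 counts). Pla2g4a was -0.45 with AAV control as the baseline and -0.9 with PBS (SE 0.673 and 0.592), and neither was called. The median gene of the unfiltered fit with PBS lay at -0.568. The KA libraries are shared by both baselines.

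The controls were also compared with each other. In IP, edgeR with the filter called 0 of 7 genes and 0% of the 10667 genes tested, of which 1153 had an unadjusted p below 0.05. DESeq2 called 16 genes, and edgeR on all 18 libraries in one fit called 11. Without the filter edgeR called 253 of 37249 genes, and 0 of the 7. In input, edgeR with the filter called 0 of 8 and 0% of 10924, of which 901 had an unadjusted p below 0.05, and DESeq2 called 14. Without the filter edgeR called 127 of 30951 genes there, and 0 of the 8. For Hpgd, the log2 fold change of PBS against AAV control was -0.34 in IP without the filter (SE 0.437, given without a test) and -0.24 in input (SE 0.326, adjusted p = 0.821). For Ptgds in IP it was -0.14 (SE 0.629, adjusted p = 0.94) and became 1.3, a call, without AAV control IP #3. In IP, Ptgs1, Ptges and Ptges3 were -0.26, -0.21 and -0.37, and without the filter Pla2g4a, Ptgs2 and Hpgds were 0.44, -0.22 and 0.8. In input, Ptgs1, Ptgs2, Ptges3, Ptgds and Hpgds were -0.2, -0.62, -0.1, -0.34 and 0.33, and without the filter Pla2g4a and Ptges were -0.02 and -0.26.

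Of 89 further genes of arachidonic acid and eicosanoid metabolism, transport and reception, listed from general knowledge, 88 were in the tables (Cyp2c44 was not analysed here). With the FPKM filter 36 were tested in IP against AAV control, of which 4 were called higher and 6 lower in KA (27.8%, beside 11.6% of all genes), and 39 against PBS, of which 5 were called higher and 6 lower (28.2%, beside 17.4% of all genes). In input, 2 of 37 were called higher and 0 lower against AAV control (5.41%, beside 2.7% of all genes), and 3 of 38 higher and 0 lower against PBS (7.89%, beside 5.35% of all genes).

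Of the 5 listed genes that return arachidonic acid to lipids, 1 was called higher and 2 lower in KA IP against each control. Acsl4, a ligase that prefers arachidonic acid, had an IP FPKM of 7.18, 7 and 4.68 in KA, 2.15, 2.67 and 1.21 in AAV control and 1.86, 1.34 and 2.48 in PBS, with no overlap. It rose by 1.71 on the log2 scale against AAV control (SE 0.264, adjusted p = 0.00472) and by 1.74 against PBS (SE 0.214, adjusted p = 0.00028). Acsl3 and Acsl6, related long-chain acyl-CoA ligases, fell by 1.59 and 1.19 against AAV control (adjusted p = 0.0102 and 0.00376) and by 1.02 and 1.28 against PBS (adjusted p = 0.00989 and 0.00165). Lpcat3 and Mboat7, acyltransferases of the same list, were -0.45 and -0.29 against AAV control (adjusted p = 0.342 and 0.322) and -0.4 and -0.38 against PBS (adjusted p = 0.138 and 0.105). In input, none of the 5 was called.

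Mgll, the monoacylglycerol lipase that in brain frees arachidonic acid from an endocannabinoid, was lower in KA IP. Its IP FPKM was 55.8, 64.2 and 58.1 in KA, 195, 184 and 167 in AAV control and 167, 167 and 109 in PBS, with every KA library below every control. Mgll fell by 1.55 against AAV control (SE 0.186, adjusted p = 0.00177) and by 1.33 against PBS (SE 0.278, adjusted p = 0.00445). Faah, which hydrolyses another endocannabinoid, fell by 1.15 against PBS (adjusted p = 0.013) and was -0.19 against AAV control (adjusted p = 0.726).

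Among genes downstream of the synthases, Ptgr1, a reductase that continues the inactivation which Hpgd begins, was higher in KA IP. Its IP FPKM was 4.93, 4.14 and 4.69 in KA, 2.21, 1.46 and 2.24 in AAV control and 1.66, 1.49 and 1.58 in PBS, with no overlap. Ptgr1 rose by 1.26 against AAV control (SE 0.26, adjusted p = 0.0143) and by 1.54 against PBS (SE 0.227, adjusted p = 0.000757) in IP. In input it rose by 1.07 against PBS (adjusted p = 0.0041) and was 1.22 against AAV control (adjusted p = 0.069). Ptgr2, another reductase of this step, had an IP FPKM of 2.45 to 3.06 in KA, 3.33 to 5.2 in AAV control and 3.79 to 4.48 in PBS, with KA below both. It was -0.51 against AAV control (adjusted p = 0.194) and -0.58 against PBS (adjusted p = 0.0246), under the fold required. Zadh2, a related reductase, was -0.86 and -0.43 (adjusted p = 0.0748 and 0.116). Cbr3, a carbonyl reductase, fell by 1.16 against AAV control in IP (adjusted p = 0.0159) and was -0.48 against PBS (adjusted p = 0.15).

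Akr1b3, an aldo-keto reductase that can make prostaglandin F2α, rose by 1.05 against PBS in IP (adjusted p = 0.000993) and was 0.95 against AAV control (adjusted p = 0.0144), under the fold required. Slco3a1, an organic anion transporter that carries prostaglandins, rose by 1.2 against PBS in IP (adjusted p = 0.00419). Against AAV control the filter left it out, as AAV control IP #1 had an FPKM of 0.942. There its mean FPKM was 5.09 in KA IP and 1.57 in AAV control IP, with no overlap. Anxa2, an annexin, had an IP FPKM of 31, 25.2 and 20.1 in KA and 2.25 to 9.46 in the 6 controls, and rose by 2.23 against AAV control and by 2.57 against PBS (adjusted p = 0.0155 and 0.000805). In input Anxa2 rose by 2.23 and 2.07 (adjusted p = 0.0031 and 4.4e-05). Tsc22d3, a glucocorticoid-induced gene, fell in IP by 1.8 against AAV control and by 1.04 against PBS (adjusted p = 0.00283 and 0.00108).

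Cyp4f15, of a cytochrome P450 family that oxidizes eicosanoids, had an IP FPKM of 0.945, 1.51 and 1.24 in KA and 10.5 to 14.4 in the 6 controls. Every KA library was far below every control, and KA #1 was under the FPKM filter. Without the filter, it was called in IP at -3.25 against AAV control (SE 0.292) and -3.11 against PBS (SE 0.277), and in input it was -0.78 and -0.91, not called. Cyp4f15, Ptgr2, Zadh2, Lpcat3 and Mboat7 fall outside the rule for naming genes and were added after their values were seen.

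In the epoxygenase branch, Cyp2j9 fell in IP by 1.39 against AAV control and by 1.3 against PBS (adjusted p = 0.00813 and 0.000671), and Ephx4, of the epoxide hydrolase family, rose by 1.15 against AAV control (adjusted p = 0.0128) and was 0.64 against PBS (adjusted p = 0.035). Ltc4s, the leukotriene C4 synthase, was called in input, where its FPKM was 10.9, 9.52 and 8.32 in KA and 1.88 to 4.45 in the 6 controls. It rose by 1.59 against AAV control and by 1.59 against PBS (adjusted p = 0.0193 and 0.00158). Both the microglia and macrophage markers and the astrocyte markers were higher in KA input, and their part was not tested.

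**Figure D5:**
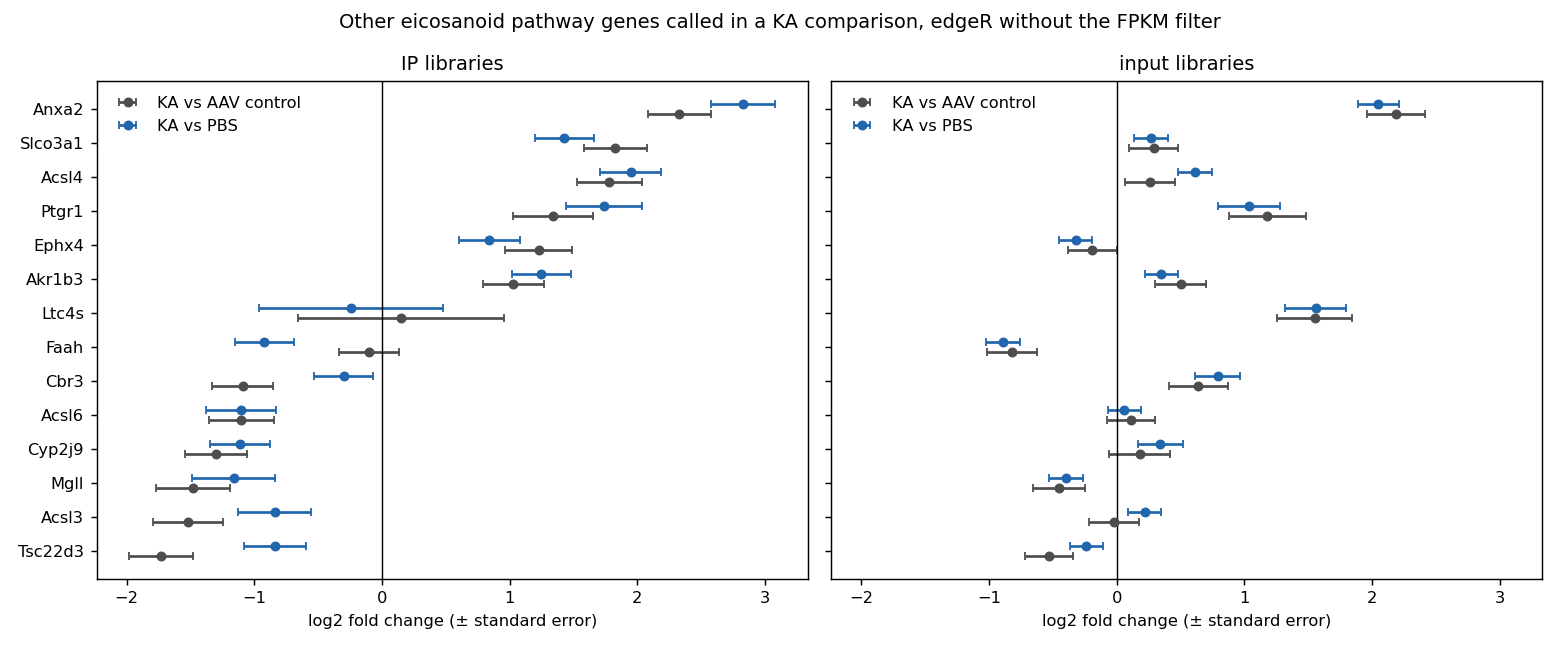
The log2 fold change of KA against each control (horizontal axes, bars are standard errors, edgeR without the FPKM filter) in IP (left) and input (right) for the 14 further pathway genes called in a KA comparison with the filter. Anxa2, Acsl4 and Ptgr1 lie above 0 in both panels, whereas Tsc22d3 and Mgll lie below 0 in both.

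The genes whose pattern was most like that of Hpgd were found by the root mean square difference of log2(FPKM + 1) over the 18 libraries, each gene centred on its own mean, among 10553 genes with FPKM above 1 in all KA IP libraries. The 5 nearest were Igfbp7 (0.37), Tnfrsf12a (0.45), S1pr3 (0.46), Tgm1 (0.53) and Ccn2 (0.54), and the libraries share group, homogenate and run. Igfbp7, a secreted IGF-binding-related protein, had FPKM of 117, 107 and 61 in KA IP, so its KA #3 was also the lowest of the 3, and 3.25 to 6.65 in the 6 control IP libraries. Its mean was 27.3 in KA input, 8.84 in AAV control input and 7.72 in PBS input. Tnfrsf12a, the receptor of the cytokine TWEAK, had FPKM of 71.4, 81 and 80 in KA IP and 1.22 to 4.81 in the control IP libraries. S1pr3, a sphingosine phosphate receptor, had a mean of 35.4 in KA IP, 1.12 in AAV control IP and 0.976 in PBS IP. Tgm1, a transglutaminase, had a mean of 25.2 in KA IP and was at 0 in all 3 AAV control input libraries, and Ccn2, a matricellular protein, had means of 20.3 in KA IP, 0.553 in AAV control IP and 0.464 in PBS IP. These genes were chosen for their likeness to Hpgd, so their levels are a description.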

How the data were processed

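RNA-seq libraries of IP and input RNA from 3 groups of 3 samples were used. The authors aligned reads to mm10 with STAR, and the submitters' processing notes also name featureCounts and edgeR. Per the labels and file contents, the deposited counts are whole, unnormalized reads per gene symbol, and the deposited FPKM values were computed by the authors from these counts. Versions, annotation release and strandedness are not given in the sources used here, so reads of overlapping genes (Gm45540 in Hpgd and others with at most 23 counts) cannot be told apart. Of the symbols, 96.4% matched a GENCODE gene on GRCm38, which gave the coordinates.

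Counts were fitted in R 4.3.3 with edgeR 4.0.16 (TMM, quasi-likelihood test, Benjamini-Hochberg adjustment over all genes tested), only on the groups compared, with FPKM above 1 in every library. Alternatives were RLE scaling, no filter, DESeq2 1.42.0, limma-voom (limma 3.58.1), a replicate block, all 18 libraries in one fit, sequencing run as a term and each library left out. Run 1 alone and a minimum of 10 counts in 3 libraries were added after seeing the data. The script was tested on simulated data with known changes. The members and lists were chosen with earlier results of these data known. Hpgd was at first to be counted among 8 genes in comparisons of control IP libraries and was left out of those counts later. The rule for naming took all 8 genes, and of the wider list the called genes with the smallest p, at most 6 in each direction of each KA comparison. Markers not named above are those of endothelium and mural cells, whose 8 markers summed to 6.49 to 17.9 in IP and 25.1 to 41.2 in input.

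Each homogenate gave the IP and the input library of a number, and their deviations from the group means correlated at 0.155 to 0.752. Same-numbered KA and AAV control libraries correlated at 0.348 to 0.551 in IP and 0.352 to 0.55 in input and share a sequencing run. Numbers #1 and #2 of both groups are in run 1, so the correlation cannot show whether #1 pairs with #1 or #2. With PBS, same-numbered libraries correlated at -0.294 to 0.354 in IP and -0.125 to 0.0826 in input, and they share no run. Libraries of a group differed by 4.48 to 109 times the variance of counting noise, so none repeated another at counting noise alone. This cannot tell whether libraries were prepared from the same RNA. A count of 0 is compatible with up to 3 expected counts, which covers counting error only. Nothing says whether a pool of mice was prepared on its own day, and p-values measure the spread between pools.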

Additional observations from a re-analysis of the deposited data

Results flagged for a closer look

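The difference of the KA effect between IP and input was called by edgeR for 1 of 7 prostaglandin genes with AAV control as the baseline (3 passed the FPKM filter, and 9.42% of all genes were called) and for 2 of 7 with PBS (4 passed it, and 13.9% of all genes were called). For Ptgs1 it was -2.5 with AAV control as the baseline and -2.49 with PBS, with Ptgs1 lower in KA IP and higher in KA input. For Hpgds it was -2.3 with PBS as the baseline, where Hpgds was higher in KA input.

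The same difference was called for 8 further pathway genes that the text names. With AAV control as the baseline it was -1.31 for Acsl6, 1.32 for Ephx4, -1.13 for Mgll, -1.82 for Cbr3, -1.28 for Tsc22d3, -1.58 for Acsl3 and -1.6 for Cyp2j9. With PBS as the baseline it was -1.67 for Cyp2j9, -1.38 for Acsl6, -1.27 for Acsl3, 1.1 for Acsl4 and -1.3 for Cbr3. Both baselines use the same KA libraries. Groups of 3 are too small for a test of single outlying libraries.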

How the results depend on the processing

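The count of called genes was 1 of 7 for KA against AAV control in IP, 3 without the FPKM filter and 2 with DESeq2, all 18 libraries in one fit, sequencing run as a term, run 1 alone or a minimum of 10 counts, and 1 to 2 with a library left out. Against PBS in IP, 1 of 7 became 2 without the filter and with a minimum of 10 counts. PBS against AAV control in IP ranged from 0 to 1 with a library left out. For IP against input in AAV control, 0 of 7 became 3 without the filter, 2 with a minimum of 10 counts, 1 with limma-voom, with all 18 libraries in one fit and with the replicate block, and 0 to 1 with a library left out. In PBS, 1 of 7 became 3 without the filter and with a minimum of 10 counts. The difference of the KA effect between IP and input with AAV control as the baseline, 1 of 7, became 5 without the filter, 4 with a minimum of 10 counts, 2 with the replicate block and within run 1, and 1 to 2 with a library left out. With PBS as the baseline, 2 of 7 became 4 without the filter and with a minimum of 10 counts, and 3 with the replicate block. The other counts stayed within 1.5 times of the main count, and the replicate block changed no count but those named. The causes were not tested, except that the fits without the filter test more genes.

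Of 834 values of single genes under alternatives, 771 kept their direction and side of the threshold, 23 passed it, 6 no longer passed it and 31 changed sign. Sign changes were of small values or of Ptgds. Ptges for KA against PBS in IP was 0.05 without the filter and 0.03 with a minimum of 10 counts, and Ptges for PBS against AAV control in IP ranged from -0.35 to 0.01 with a library left out. Ptgds for PBS against AAV control in IP was 0.45 with limma-voom, 0.43 with the replicate block and -0.56 to 1.3 with a library left out, in input -0.63 to 0.28, and for KA against AAV control in input -0.03 to 0.91. Ptgs1 for PBS against AAV control in input ranged from -0.35 to 0.01. Ptges3 for IP against input in KA was -0.01 with RLE, DESeq2 and limma-voom, 0.00 with the replicate block and -0.09 to 0.17 with a library left out. In AAV control it was 0.01 with all 18 libraries in one fit and -0.17 to 0.24. For KA against AAV control Ptges3 ranged from -0.15 to 0.27 in IP and 0.0 to 0.18 in input, and its difference of effects was -0.05 within run 1 and -0.22 to 0.19.

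At 11 to 38 counts for Pla2g4a and 19 to 41 for Ptgs2 in control IP, depth limits the precision of these genes.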
